A study of Mus musculus with 4 samples.

Results

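Tceal7, Tecrl and Tm6sf1 are 3 little-described genes that lay among the deepest falls when C2C12 cells differentiated in myostatin. They were chosen by their mean log2 ratio of GDF8 over untreated cells, among the 12 largest falls. Their ratios below are therefore a description and carry no test of the fall, and only their dye difference is tested. Their probes were found by gene name, by an older name or by a RefSeq accession of the same gene: Tceal7 had 1 probe, Tecrl had 1 under its older name Srd5a2l2, and Tm6sf1 had 2, which makes 4 of the 41174 probes on the array and 3 of the 17458 genes or unnamed transcripts that entered the fit. C2C12 is an established mouse myoblast line, and the labels name no genetic change. After growth in medium with 10% fetal bovine serum, the cells spent 6 days differentiating, either untreated or with 20 nM GDF8 (recombinant mouse myostatin) given every 24 h. The labels give the horse serum of the differentiation medium as 2% in one place and 10% in another, and no vehicle is named for the untreated cells. Each of 4 two-colour arrays held 1 GDF8 and 1 untreated RNA and is called a biological replicate. GDF8 was in Cy3 (green) on replicates 1 and 4 and in Cy5 (red) on replicates 2 and 3. Nothing in the labels says how the cultures were kept apart, so the spread between arrays may in part be technical.

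Myostatin is a ligand of the TGF-beta family that limits muscle mass; it binds activin type II receptors and signals through Smad proteins. Tceal7 belongs to a family of small X-linked proteins named for their likeness to the transcription elongation factor TFIIS, and in muscle cells it is known as a target of the myogenic regulatory factors, which bind E-boxes. Tecrl resembles Tecr, the reductase of the last step of very-long-chain fatty acid elongation. It is a membrane protein of the endoplasmic reticulum, found in heart and skeletal muscle, and human variants in it cause stress-induced ventricular tachycardia. Tm6sf1 encodes a multi-pass membrane protein of lysosomes with an EXPERA domain, a fold it shares with its paralogue Tm6sf2 and with sterol enzymes such as Ebp.

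A RefSeq promoter window was at hand for 2 of the 3 genes, Tceal7 and Tecrl. The 250 bases before each start are shown because E-boxes are the sites that myogenic factors read. They are written 5′ to 3′ on the strand of the gene, with matches to CANNTG (E-box), MEF2 and CArG in capitals. Tceal7 lies at chrX:136223791-136224040 (plus strand) and Tecrl at chr5:83355196-83355445 (minus strand), both of build GRCm38.p6.
Tceal7: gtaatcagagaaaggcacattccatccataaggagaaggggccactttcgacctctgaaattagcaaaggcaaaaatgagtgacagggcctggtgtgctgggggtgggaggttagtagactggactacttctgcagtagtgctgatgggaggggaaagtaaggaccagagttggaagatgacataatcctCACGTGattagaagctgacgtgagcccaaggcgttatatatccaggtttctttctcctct
Tecrl: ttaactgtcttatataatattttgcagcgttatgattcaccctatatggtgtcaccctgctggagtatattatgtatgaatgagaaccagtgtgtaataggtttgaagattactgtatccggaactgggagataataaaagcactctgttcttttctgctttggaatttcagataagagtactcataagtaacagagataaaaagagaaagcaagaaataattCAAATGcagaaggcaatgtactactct
Each window held 1 E-box, CACGTG at 60 to 55 bases before the start of Tceal7 and CAAATG at 27 to 22 bases before that of Tecrl. Among 32851 such RefSeq windows, 66.2% held an E-box, so 1 match is common, while 6.0% held the letters CACGTG. Tceal7 also held CATTCC, the MCAT motif, at 233 to 228 bases before the start, as did 12.6% of windows. Neither window held the MEF2 pattern YTAWWWWTAR or the CArG pattern CCWWWWWWGG, found in 2.9% and 1.5% of windows. In these patterns W is A or T, Y is C or T, and R is A or G. The E-box forms CAGCTG (13.0% of windows) and CACCTG (17.2%) were also absent from both windows. The Smad motif CAGAC (42.2% of windows), the TATA box as TATAAA (12.4%), the GC box GGGCGG (32.7%) and the forkhead motif GTAAACA (3.2%) had no match in them either. Both strands were searched, the 3 six-letter E-boxes are also counted under CANNTG, and a match is a description of letters, not of binding. GC content was 48.4% for Tceal7 and 34.4% for Tecrl, against a median of 52.4%.

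Tceal7 gave the deepest mean fall of the 3 genes at their brightest probes, and the least even one. Its log2 levels after loess in replicates 1 to 4 were 14.27, 13.95, 13.41 and 13.31 in untreated cells and 12.48, 12.29, 12.71 and 11.24 with GDF8. The 4 untreated levels all lay above the 4 GDF8 levels, with 0.60 between the groups. That gap sets replicate 4 against replicate 3, and levels were not normalised between arrays. The log2 ratios of GDF8 over untreated were -1.79, -1.66, -0.71 and -2.07, a mean of -1.56 ± 0.59 (SD, n = 4 arrays) or 2.94-fold lower. Replicate 3 gave 1.63-fold lower and replicate 4 gave 4.21-fold lower, so the size of the fall differed between arrays although its direction did not. The SD of these ratios was at or above that of 95.4% of all genes in the fit. The fit's estimate, which weighs both dye orientations equally, was -1.80 without replicate 3 and -1.32 without replicate 2. In such a fit the 1 array left in an orientation stands for it alone.

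Tecrl fell by a similar amount and more evenly. Its log2 levels were 13.73, 14.01, 13.59 and 13.21 in untreated cells and 12.29, 12.24, 12.54 and 11.56 with GDF8, again with no overlap. The ratios were -1.44, -1.76, -1.05 and -1.64, with a mean of -1.48 ± 0.31 (SD, n = 4) or 2.78-fold lower. As in Tceal7, replicate 3 gave the smallest fall, here 2.07-fold.

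**Figure D1:**
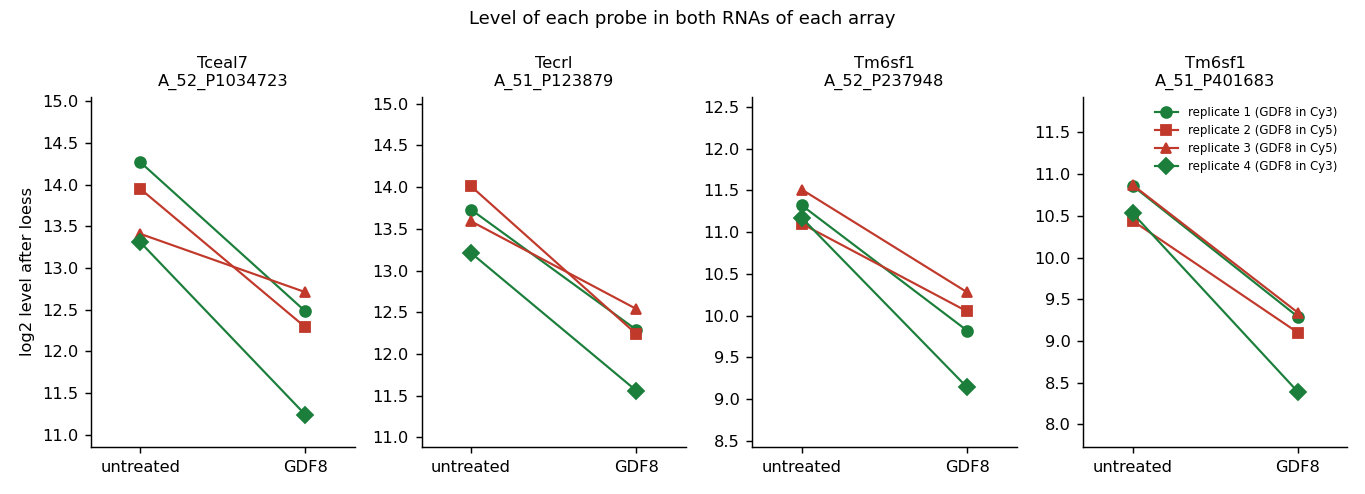
Log2 level after loess of each of the 4 probes in the untreated and the GDF8 RNA of each array; each line joins the 2 RNAs of 1 array, its colour gives the dye of the GDF8 RNA, and each panel has its own level axis of equal span. Every line slopes down, and replicate 4 holds the lowest GDF8 level in each panel.

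Tm6sf1 was read by 2 probes, which both gave lower levels on all 4 arrays. At the brighter probe (A_52_P237948) the untreated log2 levels were 11.32, 11.10, 11.51 and 11.17 and the GDF8 levels 9.82, 10.05, 10.28 and 9.14. The ratios were -1.50, -1.05, -1.23 and -2.03, with a mean of -1.45 ± 0.43 (SD, n = 4) or 2.73-fold lower. At the dimmer probe (A_51_P401683) the untreated levels were 10.86, 10.44, 10.87 and 10.53 and the GDF8 levels 9.29, 9.10, 9.34 and 8.39. Its ratios were -1.56, -1.34, -1.53 and -2.14, with a mean of -1.64 ± 0.34 (SD, n = 4) or 3.12-fold lower. The dimmer probe thus showed the larger fall on every array, by 0.07 to 0.30. Replicate 4 was the deepest at both probes, and without it the fit's estimates, with the dye term kept, were -1.32 and -1.50.

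All 4 probes were well above background in both RNAs on every array, 0 were saturated and 0 had a spot flagged as an outlier, so each of the 32 channel values is a measurement rather than a bound. The GDF8 and untreated levels did not overlap in any of the 4 probes; over all genes in the fit 1.86% showed such a gap in this direction, and nothing is read from the count, since the fall chose the genes. Ordered by mean ratio among named genes called lower on all 4 arrays, Tceal7 stood in place 7, Tecrl in place 9 and Tm6sf1 in place 10. This order uses the brightest probe of each gene, where saturation can hide a fall. Trdn, for one, gave -0.63 at its brightest probe, saturated in the untreated RNA on 2 arrays, and -1.83 at a probe never saturated. The last of the 12 largest falls, from which the 3 were drawn, was Cyfip2 (-1.45) and the next gene down was Cxcl13 (-1.44), so that limit separates nearly equal values. Bulk RNA does not tell fewer cells of one kind from less RNA per cell.

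**Figure D2:**
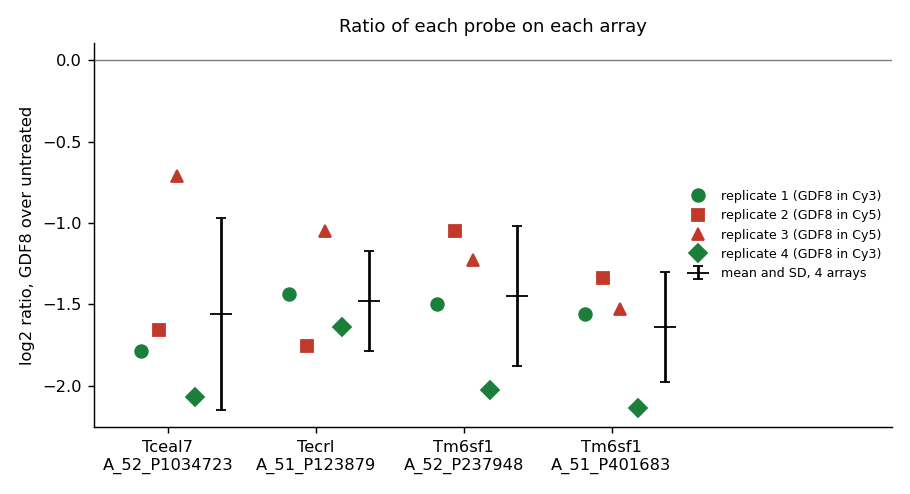
Log2 ratio of GDF8 over untreated of each probe on each array, with the mean and SD over 4 arrays to the right of the points; the colour gives the dye of the GDF8 RNA. All 16 ratios lie below 0, from -2.14 to -0.71, and for Tceal7 and Tm6sf1 the arrays with GDF8 in Cy3 lie below those with GDF8 in Cy5.

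The fall was compared between the dye orientations, and no difference passed after adjustment. Before adjustment, limma's p for the dye term was 0.033 for Tm6sf1, 0.057 for Tceal7 and 0.62 for Tecrl. Tceal7 averaged -1.93 with GDF8 in Cy3 and -1.18 with GDF8 in Cy5, a difference of 0.75 ± 0.32 (SE from limma's dye term, adjusted p = 0.20). For Tm6sf1 the averages were -1.76 and -1.14, a difference of 0.62 ± 0.23 (adjusted p = 0.14), and for Tecrl they were -1.54 and -1.41, a difference of 0.14 ± 0.27 (adjusted p = 0.80). A larger dye difference was seen in 10.9% of all genes than in Tceal7, 17.9% than in Tm6sf1 and 73.2% than in Tecrl. Both orientations held equally many arrays, so the dye difference is balanced in the means. Over all genes in the fit the ratios followed the dye as well: arrays of one orientation correlated at 0.47 (both pairs), and arrays of opposite orientation at -0.19 to 0.16. The share of spots well above background ran from 63.3% to 78.8% over the 8 channels. The green channel of replicate 4, which held GDF8, had 0.745% of its spots saturated, against 4.11% to 5.49% in the green channels of the other arrays, and signals there stood closest to background: 3.88 times the local background at the dimmer Tm6sf1 probe, 5.0 times at the brighter one, 14.7 times for Tceal7 and 19.3 times for Tecrl. The part of that channel in the deeper ratios of replicate 4 was not tested. Without replicate 4 the fit's estimates were -1.49 for Tceal7 and -1.43 for Tecrl. There the dye term was kept, and replicate 1 alone stood for GDF8 in Cy3.

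Relatives of Tceal7 were mostly not called. Of 14 genes listed for the TCEAL and BEX families and the TFIIS factors, 11 were tested, of which Bex1 was lower, 0 were higher and 10 did not pass, at a background of 2.3% of all genes called lower and 0.842% called higher. The list median was -0.05, against 0.0077 over all genes in the fit, and 2 members (Tceal8 and Tceal9) were saturated in the untreated RNA of every array, so their ratios are not read. Bex1, a small adaptor protein of the same X-linked cluster that is known in nerve and regenerating muscle, gave -0.58, -0.87, -0.55 and -1.07. That is a 1.70-fold fall (-0.77 ± 0.12 SE, limma's adjusted p = 0.024). It did not pass when replicate 2 (adjusted p = 0.12) or replicate 4 (0.078) was left out. Tceal6 (-0.44 ± 0.09, adjusted p = 0.065) and Tceal3 (-0.34 ± 0.10, adjusted p = 0.20), both chosen after their values were seen, were below 0 on all 4 arrays. Neither passed. Bex1, Tceal6 and Tceal3 were the 3 of the 11 tested genes with an unadjusted limma p under 0.05, all lower. Of all genes 7.17% were lower by that measure.

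Genomic neighbours, 3 protein-coding genes on each side in RefSeq's order, were compared to see whether a fall extended along the chromosome. Of 18 such neighbours 12 were tested and 1 passed, at a background of 3.14% of all genes called in either direction. It was Bex1, which is the second gene before Tceal7. Bex3, the second gene after it, gave -0.05 ± 0.11 with saturated values in 2 GDF8 and 2 untreated channels. Tceal9, the first gene after Tceal7, was saturated in 7 channels. Next to Tecrl, Adgrl3, an adhesion receptor, gave -0.03 ± 0.11 (adjusted p = 0.97), while Igfbp7 and Polr2b were saturated in 7 and 5 channels. A fall at such saturated probes could go unseen, so the count does not show that neighbours were unchanged. Before Tm6sf1 the brightest probe of Btbd1 was saturated in 7 channels; Hdgfl3, the first gene after it, was not tested, and Sh3gl3, an endophilin and the third gene after it, gave 0.34 ± 0.09 (adjusted p = 0.13).

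The fatty acid elongation machinery, to which the paralogue of Tecrl belongs, had no member called lower. Of 16 elongases, dehydratases, reductases and steroid 5-alpha-reductases, 14 were tested: 0 were lower, Elovl7 was higher and 13 did not pass, with a list median of 0.18. At an unadjusted limma p under 0.05, 6 of the 14 stood out, 5 higher and 1 lower, where 12.5% of all genes did (5.3% higher and 7.17% lower). Tecr itself, the closest relative, gave 0.22, 0.46, -0.01 and -0.19 (0.12 ± 0.12 SE, adjusted p = 0.86). Elovl7, an elongase of long saturated chains, gave 1.01, 0.69, 0.31 and 0.55, which is 1.56-fold higher (0.64 ± 0.12, adjusted p = 0.045). A second Elovl7 probe gave 0.22, and the call was lost in 8 alternatives (adjusted p from 0.054 to 0.23), among them each fit that left out 1 array. Of the 14, 4 had saturated channels, where a fall could go unseen, so the list median rests in part on clipped ratios. Hacd1, the muscle form of the dehydratase, was saturated in the untreated RNA of every array, and Hacd3 in both RNAs of every array, so their ratios are not read. Elovl1 was saturated in 3 GDF8 and 3 untreated channels, and Elovl5 in 2 and 2.

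Genes whose human variants cause the same stress-induced ventricular tachycardia as TECRL were listed with it. Of 5 tested, Trdn (triadin, which anchors calsequestrin at the calcium release channel) was lower, 0 were higher and 4 did not pass (list median 0.03). All 5 had saturated channels, 3 of them in a whole group. The brightest Trdn probe gave -1.18, -0.21, 0.15 and -1.27 (-0.63 ± 0.10 SE, adjusted p = 0.028), with the untreated RNA saturated on 2 arrays, and it gave -0.03 (adjusted p = 0.98) with saturated spots left out. It also did not pass without replicate 1, 2 or 4 (adjusted p = 0.063, 0.18 and 0.099), without the dye term (0.40), with single channels unpaired (0.081) or on the scanner software's ratios and the deposited table (0.06). Both Trdn probes that were never saturated were lower when each probe was tested on its own, at -1.14 (adjusted p = 0.0079) and -1.83 (adjusted p = 0.0071).

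Of the 4 EXPERA domain genes related to Tm6sf1, 0 passed in limma in either direction, also 0 at an unadjusted p under 0.05, and the median was 0.03. By the methods' t-test after adjustment 0 genes of any of these lists passed. Tm6sf2, the closest paralogue and a gene of liver lipid export, gave -0.09, -0.17, 0.12 and 0.26 (0.03 ± 0.11 SE, adjusted p = 0.97), with its sign turning without replicate 3 or 4. Tmem97, a sterol-regulated receptor, gave 0.21 ± 0.11 (adjusted p = 0.58), and Ebpl gave -0.05 ± 0.09 (adjusted p = 0.93). The brightest probe of Ebp was saturated in the untreated RNA of every array.

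**Figure D3:**
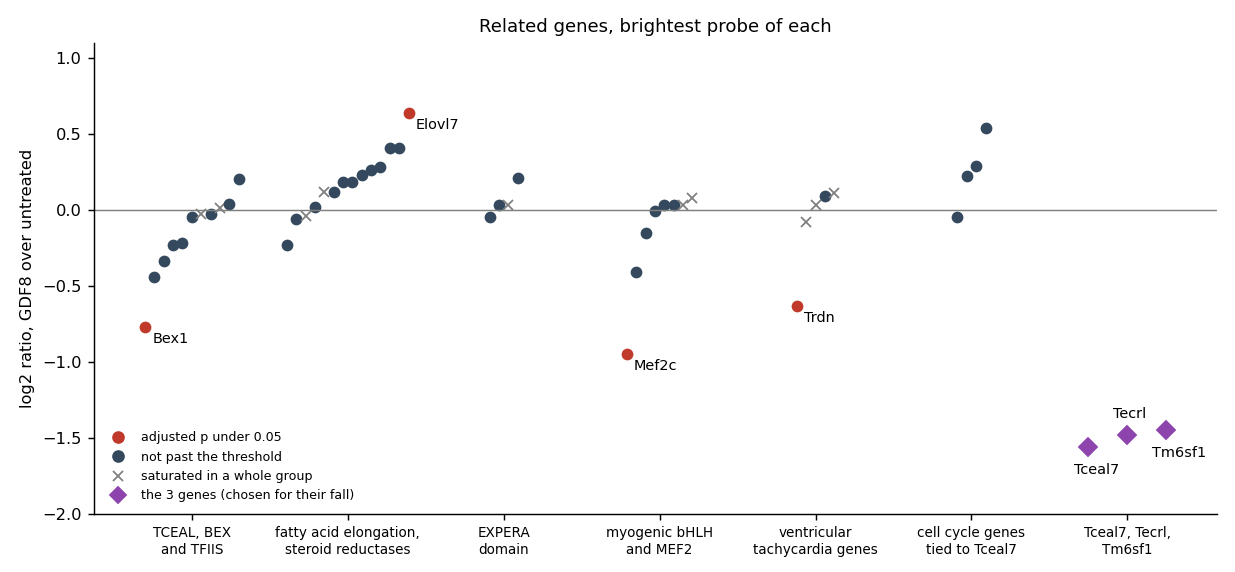
Log2 ratio of GDF8 over untreated at the brightest probe of each tested gene of 6 lists, with the 3 genes at the right; red points passed limma's adjusted threshold of 0.05, dark points did not, and crosses were saturated on all 4 arrays of a group. Bex1, Mef2c and Trdn (lower) and Elovl7 (higher) are the 4 that passed; Trdn is shown by its brightest probe, which was saturated in 2 untreated channels, and the 3 genes were chosen for their fall.

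Among 8 myogenic bHLH and MEF2 factors, 1 was lower, 0 were higher and 7 did not pass (list median 0.01). Of the 8, 4 had saturated channels, 2 of them (Myog and Mef2d) in a whole group, so a fall there could go unseen. Mef2d probes that were never saturated gave -0.31 (limma's adjusted p = 0.19) and -0.11 (0.79) when each probe was tested on its own. At an unadjusted limma p under 0.05, 2 were lower and 0 higher, where 7.17% of all genes were lower. Mef2c, a partner of the myogenic factors, gave -1.46, -0.84, -0.44 and -1.08, or 1.94-fold lower (-0.95 ± 0.11 SE, adjusted p = 0.014), and was not past the threshold without replicate 2 (adjusted p = 0.058) or with single channels unpaired (adjusted p = 0.13). Myf6, a myogenic factor chosen here after its values were seen, gave -0.36, -0.39, -0.36 and -0.54 (-0.41 ± 0.09 SE, adjusted p = 0.074) and did not pass. Myod1 gave -0.01 ± 0.09 with saturated channels, and the brightest probe of Myog was saturated in the untreated RNA of every array. Of 4 cell cycle genes tied to Tceal7 in earlier work, 0 passed, 2 were higher at an unadjusted limma p under 0.05 (5.3% of all genes were), and the median was 0.25. Cdk1, the mitotic kinase, came closest at 0.72, 0.67, 0.46 and 0.32 (0.54 ± 0.11 SE, limma's adjusted p = 0.053). It passed only with saturated spots left out (adjusted p = 0.049), where its own ratio stayed at 0.54. With 1 array left out its adjusted p ran from 0.069 to 0.28. A second Cdk1 probe, which did not enter the fit, gave 0.05. Ccnd1 gave 0.29 ± 0.11 (adjusted p = 0.33) and Myc 0.22 ± 0.13 (adjusted p = 0.67).

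Genes with the most similar 4 ratios were found by the root mean square difference in log2 ratio over the 4 arrays, among 9303 other named genes that were well above background everywhere and never saturated. All shared their arrays with the 3 genes, so the likeness is a description. For Tceal7 these were Synpr, a synaptic vesicle protein (difference 0.16), Mybpc2, the fast-fibre myosin-binding protein C (0.17), Tnni3, cardiac troponin I (0.20), the chemokine Cxcl13 (0.22) and the receptor Tnfrsf19 (0.26). Mybpc2 gave -1.99, -1.93, -0.78 and -2.02, with the same small fall in replicate 3. For Tecrl they were Mybpc3, the cardiac myosin-binding protein C (0.07), the non-muscle myosin Myh14 (0.15), the actin regulator Cyfip2 (0.16), the Z-disc protein Actn2 (0.19) and Clic5 (0.19). Mybpc3 gave -1.41, -1.67, -1.10 and -1.74, close to Tecrl on each array. For Tm6sf1 they were Krt31, a hair keratin (0.15), Yipf7 (0.19), the anion transporter Slc26a7 (0.25), Cd28, a receptor of T cells (0.26), and Cxcl13 (0.26). Among the 3 genes Tceal7 and Tecrl differed by 0.33, Tceal7 and Tm6sf1 by 0.43 and Tecrl and Tm6sf1 by 0.41, while both Tm6sf1 probes differed by 0.22.

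**Figure D4:**
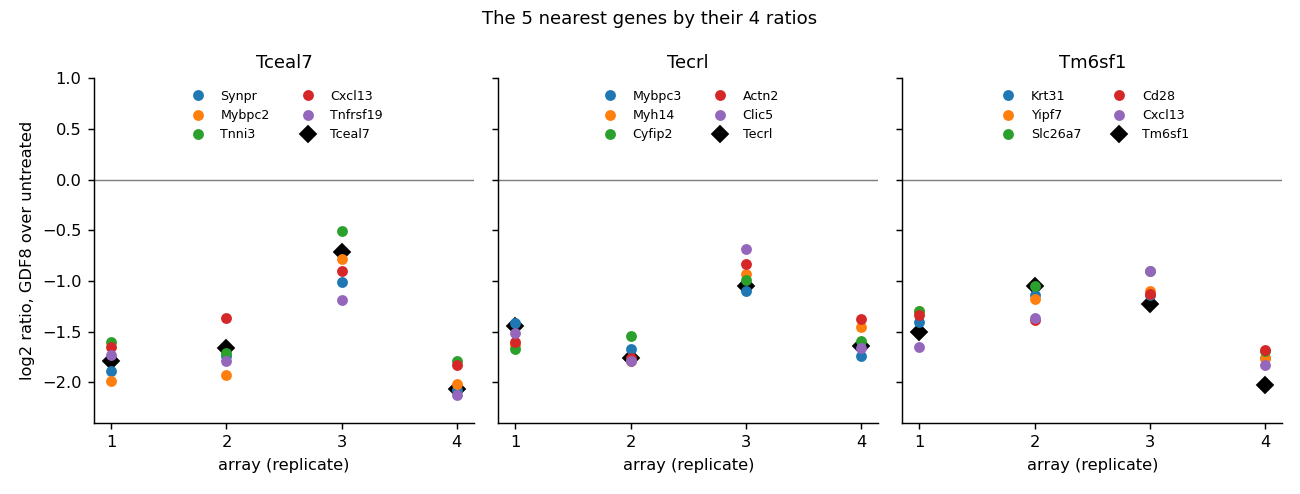
Log2 ratio of GDF8 over untreated on each array for each of the 3 genes (black diamonds) and for the 5 genes with the smallest root mean square difference to it (coloured points); arrays are set side by side and have no order. In the Tceal7 and Tecrl panels every gene has its smallest fall on replicate 3, and in the Tceal7 and Tm6sf1 panels every gene has its deepest fall on replicate 4.

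Markers of the labelled cells were present. All 8 markers of differentiated muscle and all 4 of myoblasts were well above background; 6 of the former were saturated in a whole group, and the other two, Actn2 (-1.39 ± 0.16 SE, adjusted p = 0.013) and Ckm, muscle creatine kinase (-0.93 ± 0.18, adjusted p = 0.0496), were lower. Of the listed markers of other cells, some did not enter the fit because they were not well above background on all arrays of a group. These were Adipoq and Plin1 (fat), Pecam1 and Cdh5 (endothelium), Ptprc and Adgre1 (blood) and Snap25, Rbfox3 and Syp (nerve). Of the tested markers of these cells, or of bone and cartilage, 0 passed in limma. Fabp4, Pparg and Cebpa (fat), Kdr and Tek (endothelium), Cd68 and Hba-a1 (blood) and Map2 (nerve) were well above background in both RNAs on all 4 arrays. All 6 bone and cartilage markers entered the fit. Among them Col2a1 was saturated in 3 GDF8 and 3 untreated channels and Sox9 in 2 and 1, where a change could go unseen. Of all tested markers of other cells, Bglap, osteocalcin of bone, was furthest below 0 (-0.47 ± 0.10 SE, limma's adjusted p = 0.070). Runx2, a bone regulator, was furthest above (0.36 ± 0.11, adjusted p = 0.19). The part of these markers in the falls was not tested. No other tissue was measured, so how far Tceal7, Tecrl and Tm6sf1 are restricted to muscle cannot be read here.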

How the data were processed

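Per the file headers, Agilent Feature Extraction 9.1.1.1 wrote the deposited scanner files from array design 014868. The deposited intensity columns give the mean brightness of a spot and the median of its local background in either dye. The deposited log10 column is the ratio of the red over the green signal after the scanner software had corrected both. Flags mark saturated, outlying and well-above-background spots. Per the series' design text, the authors used GeneSpring GX 12 with flag filters, an unpaired test and a fold over 1.6. The authors' deposited table holds log2 ratios; at a tolerance of 0.001 for 100% of the 40929 probes spotted once it equalled that scanner ratio, with its sign set so that GDF8 is the numerator. No centring had been applied to it (column medians 0.14, -0.09, -0.11 and 0.09).

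Signals were background-corrected by normexp (offset 50) and each array was then normalised by loess, giving control spots weight 0 (limma 3.58.1, R 4.3.3). Levels were not normalised between arrays and no probe's level is set against another's. Outlier spots were dropped, so 646 of 41174 probes lacked a value on some array. Probes entered if well above background in the GDF8 RNA, or in the untreated RNA, on all 4 arrays (26593 probes), and the brightest stood for a gene. Ratios were fitted with a GDF8 and a dye term, with Benjamini-Hochberg adjustment over 17458 features at 0.05. The array is the block. With 4 arrays an exact sign test cannot pass 0.05, and the number of arrays limits the precision. The fit was tested on simulated data.

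Names, neighbours and promoter windows came from RefSeq (GRCm38.p6): 24375 probes were named by accession, 6301 by symbol and 2426 by synonym, and 8072 kept the file's name. No build is given for the array in the sources used here, so the coordinates are RefSeq's alone. The members and lists were chosen with earlier results of these data known. Named are the 3 genes with every probe; list genes that passed, or else up to 3 of a list with the smallest p; relatives, partners, markers and neighbours as said in the text; and the 5 nearest genes by ratio. The rule's choice of up to 3 leaves out probes saturated in a whole group.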

Additional observations from a re-analysis of the deposited data

Results flagged for a closer look

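Among 22 values searched (the 4 probes' ratios and levels and the named list genes), 1 stood apart from the other arrays. Myc gave 0.08, 0.78, 0.05 and -0.03, and the gap between replicate 2 and the nearest array took 0.87 of the whole range, above the critical value of Dixon's ratio for 4 values. Chance gives about 1 in 20 such gaps, and other Myc probes gave 0.18 and 0.21 on average. No value of Tceal7, Tecrl or Tm6sf1 stood apart by this measure; the small fall of Tceal7 in replicate 3 reached 0.70.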

How the results depend on the processing

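Under 13 alternatives each, the 4 probes stayed lower with GDF8 and moved by less than their SD over arrays: Tceal7 from -1.80 to -1.32, Tecrl from -1.65 to -1.30, and the Tm6sf1 probes from -1.62 to -1.32 and from -1.94 to -1.45. Of the 13, Aquantile, no dye term, no replicate block and leaving out saturated spots leave these ratios as they are by construction, and the scanner ratios and the deposited table are the same values. The deepest values of Tm6sf1 came from the scanner software's own ratios and the deposited table, and the cause was not tested. Leaving out 1 array, with the dye term kept, gave estimates of -1.80 to -1.32, -1.65 to -1.30, -1.58 to -1.32 and -1.79 to -1.50. With no replicate block (single channels, unpaired) 265 features were lower and 58 higher, and 1 list gene was lower and 0 higher.

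Counts leaned on the setting more. Of all features 401 were lower and 147 higher, against 76 to 322 lower and 8 to 105 higher when 1 array was left out; the fewest came without replicate 4 (76 and 8) and replicate 2 (92 and 8). Without the dye term 66 were higher, with 1.6-fold added 59, by the methods' t-test with p and fold 69, and by that test after Benjamini-Hochberg 88 were lower and 24 higher. Of the list genes 3 were lower and 1 higher, against 0 to 3 and 0 to 0 with 1 array left out. The higher gene was lost (0) without background correction, without the filter on dim probes, without the dye term, with 1.6-fold added and by the methods' t-test, which after adjustment also left 0 lower; with saturated spots left out 2 were higher. Reversed signs were seen in Ebpl without replicate 1 (0.01) and in Tm6sf2 without replicate 3 (-0.04) or 4 (-0.06), all of them values near 0; with 1 array left out Ebpl ran from -0.11 to 0.01 and Tm6sf2 from -0.06 to 0.12. How signal over background limits each ratio was not tested.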
